A study of Mus musculus with 68 samples.

Results

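The genes described here are 10 Hox genes of paralogue groups 6 to 9, Hoxa6, Hoxb6, Hoxc6, Hoxa7, Hoxb7, Hoxc8, Hoxd8, Hoxa9, Hoxb9 and Hoxc9, out of 19938 genes measured on 68 mouse gene arrays. They were taken as the array's transcript clusters (its probe sets for 1 gene) annotated to 1 of these symbols, and each symbol had 1 such cluster. Mouse embryonic stem cells of strain C57/BL6 were grown as embryoid bodies without serum, given retinoic acid and Smoothened agonist on day 2, and dissociated on day 5. Cells that carried a motor neuron surface reporter transgene, CD2 or CD14, were sorted on magnets, and doxycycline then switched on 1 or 2 candidate determinants of phrenic motor neuron identity during 30 h of culture on matrigel. Total RNA was hybridised, and the series' design set each induced line against lines induced for YFP, a fluorescent protein. Some Notch cultures were induced for the last 10 h only.

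Of the 45 CD2-sorted arrays, 2 each came from the lines Arid5b, Btbd3, Chd5, DNLhx3, Hey1, Hoxa5, Hoxc6, Klf5, Klf6, Lhx3, Notch1 ICD for 10 h, Notch1 ICD for 30 h, Sfmbt2, Tox, Vwc2, Zbtb7c and Zic1. There were 4 CD2 arrays of Pou3f1, 3 of the H4 parental line and 4 of YFP. Of the 23 CD14-sorted arrays, 2 each came from NERT for 10 h, NERT for 30 h, Pou3f1, Pou3f1 with DNLhx3, Pou3f1 with FLAG, Pou3f1 with Hoxa5, Pou3f1 with Hoxc6, Pou3f1 with Lhx3 and the induced E3 parental line. A single array held the E3 parental line and 4 held YFP. All groups shared the retinoic acid, the agonist, the sort for a motor neuron reporter and the culture. The labels number 8 batches, 0 to 7, without saying what a batch shares, nor whether 2 replicates are 2 cultures. The p-values below therefore cover the spread among these arrays, part of which may be technical.

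Hox genes lie in 4 clusters, and their order along a cluster follows the order of their domains along the head-to-tail axis of the embryo. In mouse and chick spinal cord, proteins of paralogue groups 4 and 5 mark cervical levels, where phrenic motor neurons form, group 6 proteins mark the brachial levels that innervate the forelimb, and Hoxc9 marks thoracic levels. Retinoic acid favours the more rostral genes of the clusters, while Fgf and Wnt signals, acting partly through the Cdx proteins, favour the more caudal ones.

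By the RefSeq annotation of build GRCm38, Hoxa6 (chr6:52204858-52208672), Hoxa7 (chr6:52215623-52218573) and Hoxa9 (chr6:52223097-52227370) follow each other in the Hoxa cluster. The Hoxb members are Hoxb9 (chr11:96271330-96276595), Hoxb7 (chr11:96285604-96290163) and Hoxb6 (chr11:96292814-96301569). The Hoxc members are Hoxc9 (chr15:102977032-102984444), Hoxc8 (chr15:102990539-102994275) and Hoxc6 (chr15:102998226-103011882), and Hoxd8 lies at chr2:74704615-74707933. Promoter sequence, from 250 bases before to 50 after the gene's start, was matched for 4 of the 10 genes in the RefSeq table of GRCm38.p6. These 4 are shown because no promoter was matched for the Hoxb and Hoxc members. Hoxa6 and Hoxa7 differed between batches below, whereas their neighbour Hoxa9 and the Hoxd8 gene did not pass that test. Hoxb6, Hoxb7, Hoxb9 and Hoxc6, which also passed it, have no sequence here. Capitals mark TTTATG, bound by Cdx proteins, or AGGTCA, a half-site of retinoic acid receptors, on either strand.
Hoxa6 promoter, chr6:52208623-52208922, minus strand: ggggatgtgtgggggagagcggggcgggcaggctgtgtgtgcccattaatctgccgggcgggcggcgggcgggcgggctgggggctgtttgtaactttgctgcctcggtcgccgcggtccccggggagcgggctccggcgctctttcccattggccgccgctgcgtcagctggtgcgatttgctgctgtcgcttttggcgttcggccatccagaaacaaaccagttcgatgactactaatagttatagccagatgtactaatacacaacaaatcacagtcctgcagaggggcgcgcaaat
Hoxa7 promoter, chr6:52218524-52218823, minus strand: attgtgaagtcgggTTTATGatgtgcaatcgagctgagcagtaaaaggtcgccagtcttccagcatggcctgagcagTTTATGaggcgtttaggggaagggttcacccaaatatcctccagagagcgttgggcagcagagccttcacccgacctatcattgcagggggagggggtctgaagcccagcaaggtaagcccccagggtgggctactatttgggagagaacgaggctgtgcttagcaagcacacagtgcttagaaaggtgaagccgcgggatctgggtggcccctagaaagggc
Hoxa9 promoter, chr6:52227321-52227620, minus strand: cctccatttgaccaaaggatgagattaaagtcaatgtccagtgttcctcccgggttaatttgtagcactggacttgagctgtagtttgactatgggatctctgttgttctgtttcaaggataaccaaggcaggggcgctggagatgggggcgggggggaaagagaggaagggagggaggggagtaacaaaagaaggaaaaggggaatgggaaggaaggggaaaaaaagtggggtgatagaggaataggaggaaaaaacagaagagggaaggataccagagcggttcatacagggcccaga
Hoxd8 promoter, chr2:74704365-74704664, plus strand: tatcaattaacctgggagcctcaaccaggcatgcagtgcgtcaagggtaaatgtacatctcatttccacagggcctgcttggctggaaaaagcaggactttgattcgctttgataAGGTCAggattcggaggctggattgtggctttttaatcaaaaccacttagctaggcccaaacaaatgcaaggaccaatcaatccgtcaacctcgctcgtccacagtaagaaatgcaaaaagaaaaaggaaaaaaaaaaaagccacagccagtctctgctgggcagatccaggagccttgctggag

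The Hoxa7 window held 2 TTTATG matches, starting at -236 and -173 from the gene's start, and the Hoxd8 window held 1 AGGTCA match starting at -135. Among all 32851 promoters of the same length, 11.9% held TTTATG and 16.3% held AGGTCA. None of the 4 windows held TGATNNAT, a site for Hox proteins with Pbx partners found in 8.8% of promoters. ATTA, the core that homeodomains bind, occurred 4 times in Hoxa6, overlapping itself once, 2 times in Hoxa9 and 2 times in Hoxd8, and it was in 58% of promoters. A match is a match of letters only. The 4 promoters also differed in base composition: GC content was 62% in Hoxa6, 55.7% in Hoxa7, 49.7% in Hoxa9 and 46.7% in Hoxd8, against a median of 52.7% over all promoters.

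The clusters also hold microRNA genes. Their mature sequences are shown with the seed, bases 2 to 8, in capitals, since the array clusters of some of these genes moved with the Hox genes. Those array values are log2 values of probes for the gene and not of the mature RNA.
miR-10a-5p: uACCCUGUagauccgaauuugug
miR-10b-5p: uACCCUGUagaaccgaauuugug
miR-196a-5p: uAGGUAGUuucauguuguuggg
miR-196b-5p: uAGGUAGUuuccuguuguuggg
miR-615-3p: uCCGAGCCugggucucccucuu

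By seed these fall into a miR-10 pair, from the Hoxb and Hoxd clusters, a miR-196 pair, from beside Hoxb9, Hoxa9 and Hoxc9, and miR-615 from beside Hoxc5.

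Motor neuron markers differed in level. Isl1 was between 11.45 and 13.47 and Mnx1 between 8.45 and 10.34 over the 66 arrays of batches 1 to 7, as RMA values, which are background-corrected, normalised intensities on a log2 scale. On the same arrays the mean over 13 motor neuron genes was between 10.49 and 11.62, and Chat was between 8.61 and 10.55. Lhx3, between 7.44 and 11.65, and Olig2, between 7.78 and 10.47, reached below 8.22, the median of all genes' means. The 2 arrays of batch 0 had lower medians over all genes, 7.08 and 7.09 against 7.57 to 7.84 elsewhere. Their group, the induced E3 parental line, was in no other batch, so they entered no comparison. The E3 parental line of batch 6 had a single array and was not compared either. In bulk samples such as these, fewer cells of a type and less RNA per cell cannot be told apart.

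On most arrays the probes of the 10 genes were dim, which is not by itself a level of RNA. Over all 68 arrays, 9 of them had a mean below the median of all genes' means, which was 8.22, and Hoxb7 was just above it at 8.26. In 53 arrays, which leave out batch 0, batch 4 and the Hoxc6 lines, Hoxc6 ran from 5.98 to 7.10 (median 6.53) and Hoxb6 from 6.90 to 8.14 (median 7.47). These 2 genes, both of the brachial group 6, had the highest spread of the 10 once the other arrays were added, with an SD of 0.797 for Hoxc6 and 0.701 for Hoxb6 over 66 arrays. A lower SD was found for 98.9% of all genes in the case of Hoxc6 and for 98.2% in the case of Hoxb6. The 66 arrays include the lines in which Hoxc6 was itself induced, so the rank of Hoxc6 is in part set by the design. Of the group 9 genes, Hoxc9 and Hoxa9 were nearly flat, with SDs of 0.173 and 0.147, and only 21.4% and 7.03% of genes had lower ones. Hoxb9, also of group 9, had an SD of 0.545, and 95.6% of genes had lower ones. Hoxa6, of group 6, had an SD of 0.376, so the spread did not follow the paralogue group.

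The other genes lay between these extremes. In the same 53 arrays, Hoxb9 ran from 7.20 to 8.61 (median 7.90) and Hoxb7 from 7.54 to 9.02 (median 8.14). Hoxa6 ran from 7.11 to 7.85 (median 7.52), Hoxa7 from 6.87 to 7.90 (median 7.35), and Hoxd8 from 6.32 to 7.76 (median 6.92). Hoxc8, which acts in motor pools of the caudal brachial cord, ran from 6.05 to 7.01 (median 6.65), Hoxc9 from 6.43 to 7.25 (median 6.92), and Hoxa9 from 6.03 to 6.60 (median 6.34). Hoxc9, the gene that in mouse sets the thoracic programme by repressing brachial Hox genes, stayed within this range on all 66 arrays. By the choice of these 53 arrays, values outside their ranges can only lie in batch 0, in batch 4 or on the Hoxc6 lines. In the plot of all 10 genes by batch, values above the ranges lie in batch 4 and on the arrays of the Hoxc6 lines. Values below them lie in batch 0, on at least 1 of its 2 arrays for each of the 10 genes.

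**Figure D1:**
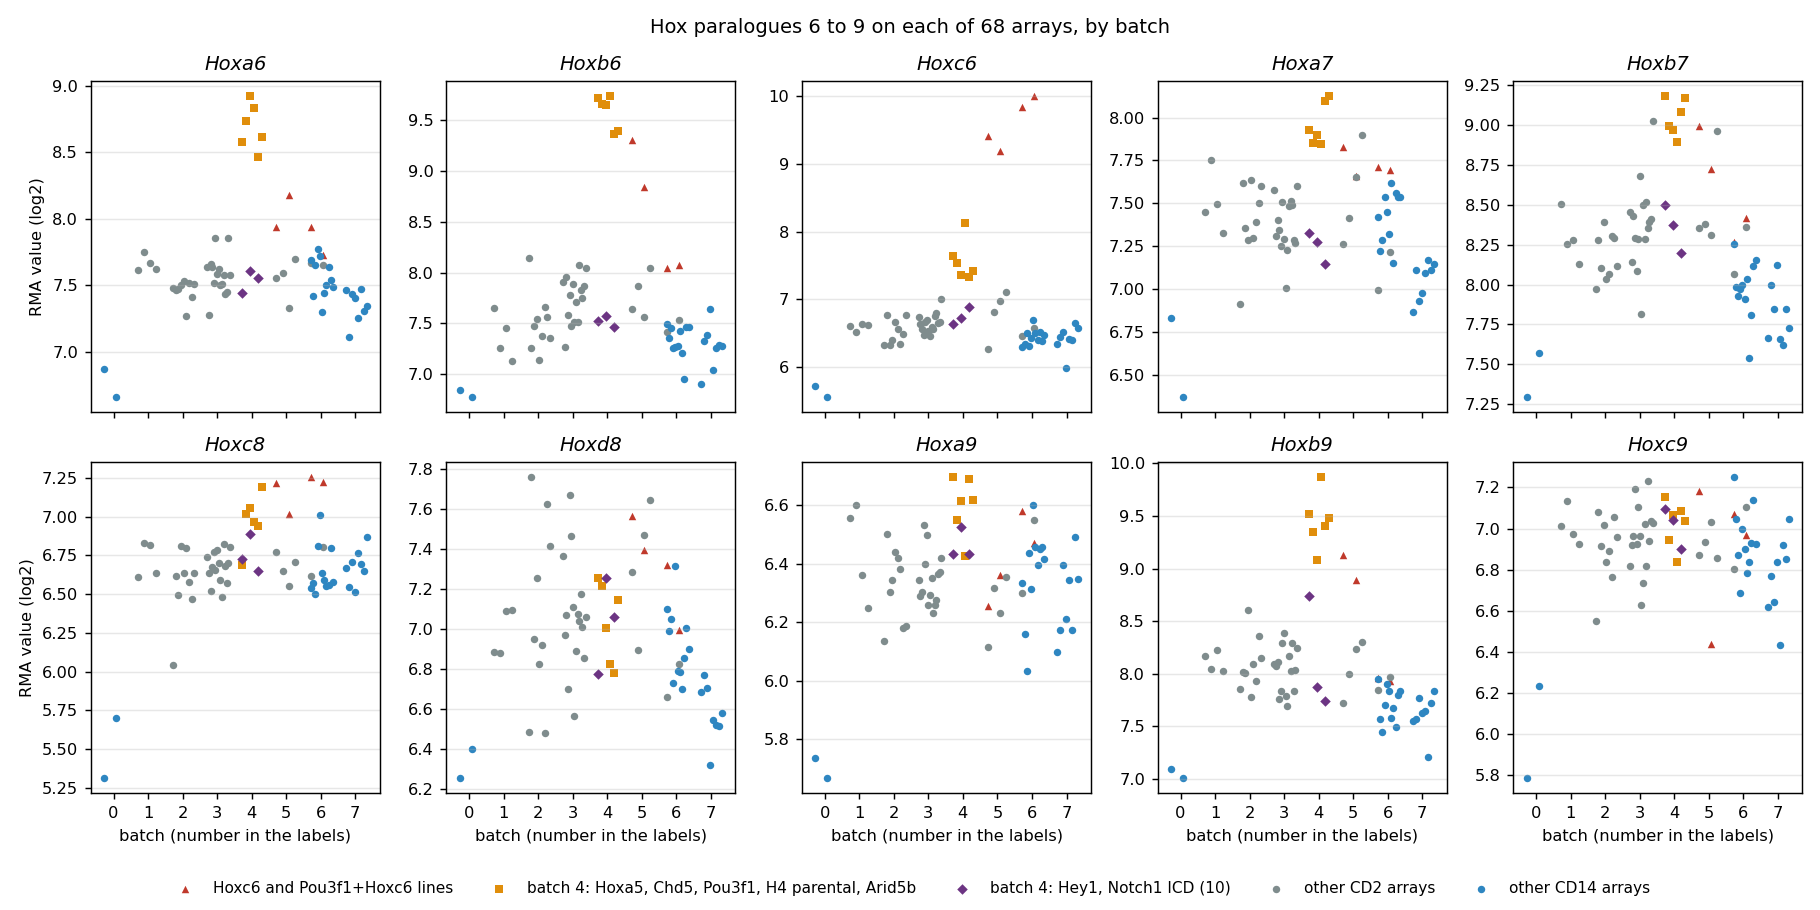
RMA values (log2) of the 10 genes on each of 68 arrays, by batch as numbered in the labels, 1 point per array. In batch 4, 6 arrays stand above the other 3 of that batch for Hoxa6, Hoxb6, Hoxc6, Hoxa7, Hoxb7 and Hoxb9, while the highest Hoxc6 values, 9.19 to 10.00, are those of the 4 arrays of the Hoxc6 lines.

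In batch 4, 6 of the 10 genes, led by Hoxb6 and Hoxb9, were higher than in the same lines of other batches, and the thoracic gene Hoxc9 and Hoxd8 were among the 4 that did not pass the test. The batch held 9 arrays: Hoxa5, Chd5, H4, Arid5b and Hey1 once each, Pou3f1 and Notch1 ICD for 10 h as 2 arrays each. Hoxb6 read 9.74 in Hoxa5, 9.67 in Chd5, 9.37 and 9.40 in Pou3f1, 9.65 in H4 and 9.72 in Arid5b of batch 4, against 7.87 in Hoxa5, 7.58 in Chd5, 7.25 and 7.14 in Pou3f1, 8.14 and 7.64 in H4 and 7.90 in Arid5b of other batches. In Hey1 it read 7.52 in batch 4 and 7.26 in batch 2, and in Notch1 ICD for 10 h, present in batch 4 only, 7.57 and 7.46. The first 6 arrays were thus above every array of the same lines elsewhere, whereas Hey1 and Notch1 ICD for 10 h were at the levels of other batches. These 6 arrays had been set apart because of Hoxa5, which read 12.14 to 12.75 in them, against 9.32 to 10.59 in the same lines elsewhere. They are described here, or left out together. They are also 6 of the 7 batch 4 arrays in the comparison with other batches below, so its p-values are not free of that choice.

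The same 6 arrays were high for other genes of the Hoxb cluster. Hoxb9 ran from 9.08 to 9.87 (median 9.44) in them, against 7.72 to 8.09 (median 7.85) in the 7 arrays of the same 5 lines in other batches. Hoxb9, a thoracic-level gene, was also at 8.74 in the Hey1 array of batch 4, against 8.02 in that of batch 2, while Notch1 ICD for 10 h had 7.87 and 7.74. Hoxb7 ran from 8.90 to 9.18 (median 9.04), against 7.97 to 8.45 (median 8.29). Neither pair of ranges overlapped.

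In the Hoxa cluster, Hoxa6 ran from 8.47 to 8.92 (median 8.68) in the 6 arrays, against 7.48 to 7.75 (median 7.59) in the same lines elsewhere. Hoxa7 ran from 7.85 to 8.13 (median 7.91), against 6.92 to 7.75 (median 7.41). Hoxa9 ran from 6.43 to 6.70 (median 6.62), against 6.11 to 6.60 (median 6.34). Along this cluster the groups were well apart for Hoxa6, close for Hoxa7 and overlapping for Hoxa9, and Hoxb9, of the same paralogue group as Hoxa9, was well apart.

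In the Hoxc cluster, Hoxc6 ran from 7.33 to 8.12 (median 7.48), with 8.12 in the Hoxa5 line, against 6.27 to 6.81 (median 6.52) in the same lines elsewhere. Hoxc8 ran from 6.69 to 7.19 (median 6.99), against 6.05 to 6.83 (median 6.68), and Hoxc9 from 6.84 to 7.16 (median 7.05), against 6.55 to 7.19 (median 6.87). Hoxd8 ran from 6.78 to 7.25 (median 7.07), against 6.48 to 7.37 (median 6.88). Only Hoxc6 of these 4 had no overlap between the groups. The share of all genes without overlap was not counted for these groups, nor for the groups whose values are compared below. Whether non-overlap was more common among the Hox genes, here or in the Hoxb and Hoxa clusters above, than among all genes was therefore not tested.

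The comparison of batch 4 with other batches used all 7 batch 4 arrays of lines that were also in another batch, Hey1 included, against the 8 arrays of those 6 lines elsewhere, with a term per line in limma. Called means an adjusted p (Benjamini-Hochberg over 19938 genes) below 0.05. Of the 10 genes, 6 rose in batch 4 and 0 fell, where 13% of all genes were called, 4.69% higher and 8.33% lower. Hoxb6 was higher by 1.74 ± 0.18 (log2, SE), a 3.34-fold difference (limma adjusted p = 0.00011). Hoxb9 was higher by 1.42 ± 0.11 (limma adjusted p = 1.84e-05), the lowest p of the 10, and Hoxa6 by 0.94 ± 0.13 (limma adjusted p = 0.000663).

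Hoxc6 rose by 0.84 ± 0.13 (limma adjusted p = 0.00129), Hoxb7 by 0.71 ± 0.10 (limma adjusted p = 0.000691) and Hoxa7 by 0.40 ± 0.11 (limma adjusted p = 0.0291). The call of Hoxa7 was lost on leaving out any of 8 arrays, with an adjusted p of 0.107 without the H4 array of batch 4. Not called were Hoxc8 (0.31, limma adjusted p = 0.0896), Hoxa9 (0.18), Hoxc9 (0.09) and Hoxd8 (-0.04). The median difference of the 10 was 0.55, against 0.03 over all genes. By line, Hoxb6 was higher in batch 4 by between 1.76 (H4) and 2.19 (Pou3f1) in 5 lines and by 0.26 in Hey1, and Hoxa6 by between 0.90 (Pou3f1) and 1.40 (H4) in those 5 and was at -0.03 in Hey1. With the 6 arrays left out, Hey1 alone still links batch 4 to the rest, by 1 array in batch 4 and 1 elsewhere, so calls are not counted there.

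**Figure D2:**
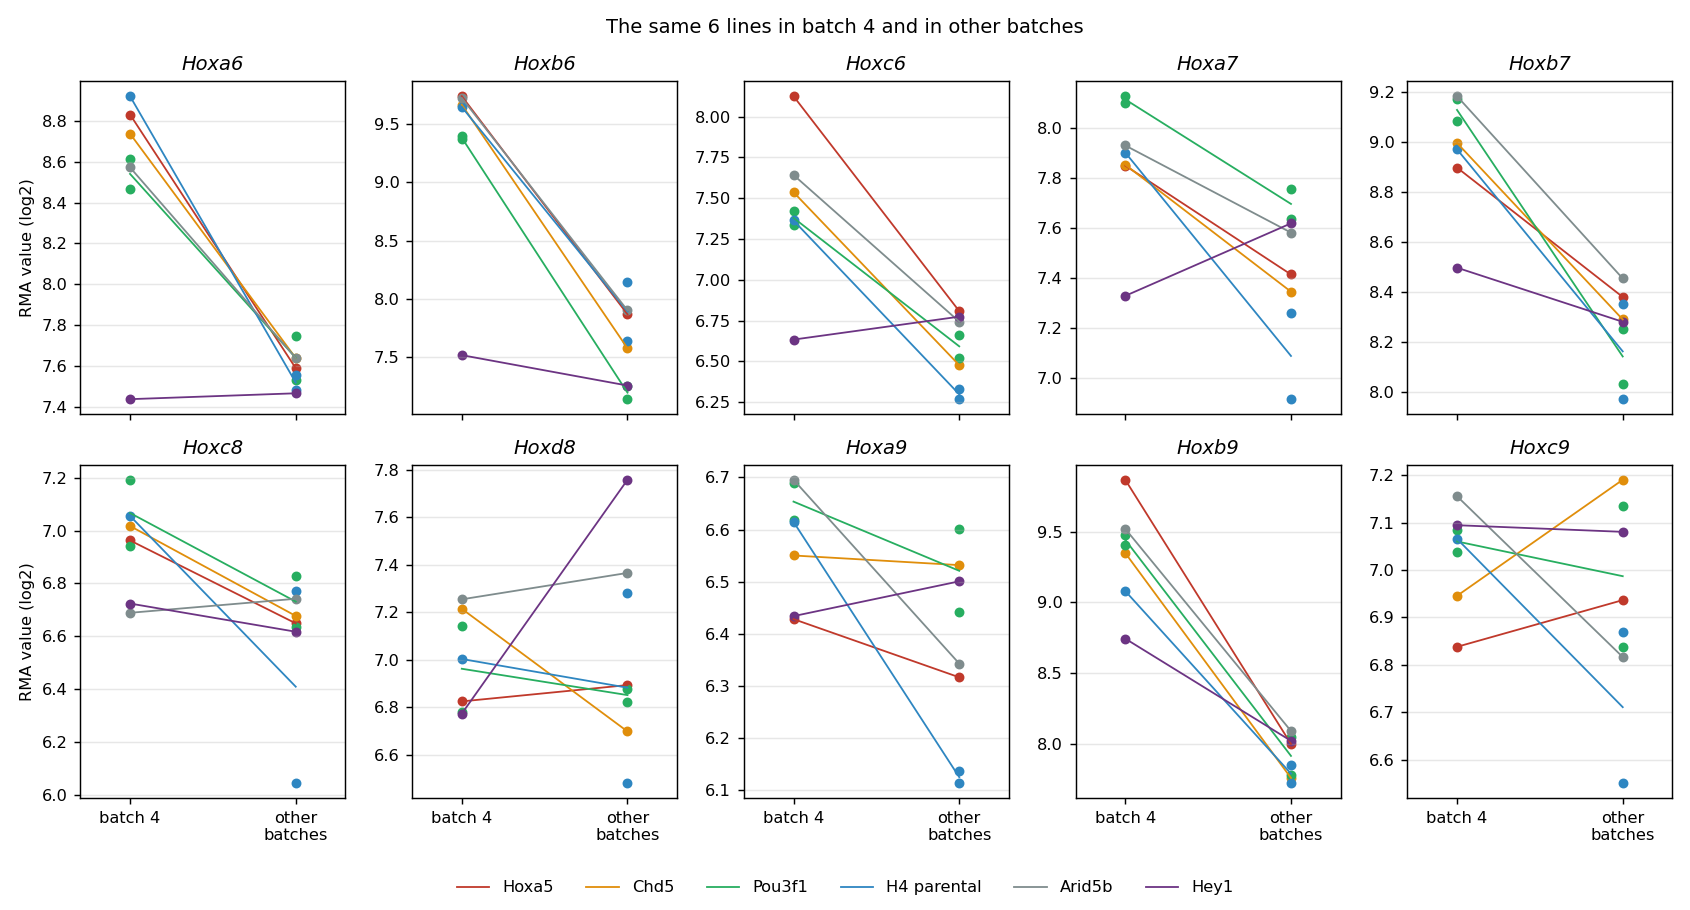
RMA values (log2) of the 10 genes in the 6 lines that have arrays in batch 4 (left) and in other batches (right), with lines joining the means of each line. All 6 lines are higher in batch 4 for Hoxb6, Hoxb7 and Hoxb9, Hey1 by the least (0.26, 0.22 and 0.72), the 5 lines other than Hey1 are also higher for Hoxa6, Hoxc6 and Hoxa7, and Hoxc9 and Hoxd8 show no common direction.

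Around the 10 genes, the more rostral Hox genes moved too. All 7 genes measured of paralogue groups 4 and 5 rose in batch 4, with a median of 1.45, among them Hoxa5 (2.38) and Hoxc5 (2.89), which in mouse act in phrenic motor neurons. Of groups 1 to 3, 4 of 7 genes rose, Hoxb3 by 0.98 and Hoxb2 by 0.93 among them, and of groups 10 to 13, the most caudal, 0 of 12 were called. The Hoxc5 gene itself read 12.14 to 12.50 in the 6 arrays, against 8.00 to 10.13 in the same lines elsewhere. Noncoding genes of the clusters rose in 6 of 10 cases, including Mir10a (1.28), Mir10b (1.21) and Hoxaas2 (1.45), a noncoding gene of the Hoxa cluster, while none of the 3 miR-196 genes was called.

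In the lists of genes around the Hox clusters, the counts of calls are to be read against the 13% of all genes called in this comparison, and nothing particular to these lists follows from them. Of 20 retinoic acid, Fgf, Wnt and Cdx pathway genes, 2 rose and 1 fell: Cyp26b1, which breaks down retinoic acid, rose by 1.80, Rarb, a retinoic acid receptor and known target, by 1.35, and Crabp2, which carries retinoic acid, fell by 0.47. Of 18 Polycomb and trithorax genes, 3 fell (Ezh1 by 0.50, Kdm6a by 0.40 and Cbx7 by 0.32). Of 19 brachial and thoracic motor neuron genes, 3 rose, among them Aldh1a2 (1.29), the retinoic acid synthesis enzyme of limb-innervating motor neurons, and 2 fell.

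Markers of other cells moved in part with batch 4, and their part in the Hox differences was not tested; the counts stand beside the same 13% of all genes called. Of 15 neural progenitor genes, 4 rose (Mki67 by 0.84, Top2a by 0.83, Notch1 by 0.68 and Pax6 by 0.49). The mean over the 15 was 10.28 to 10.50 in the 7 batch 4 arrays and 9.66 to 10.87 in the 8 others, so the groups overlapped. Of 13 motor neuron genes, 3 rose and 2 fell, with Lhx3 higher by 1.40 and Slc5a7, the choline transporter, lower by 0.70. Of 12 mesoderm, endothelium and fibroblast genes, 2 rose (means of 7.45 to 7.65 in the batch 4 arrays and 7.10 to 7.59 in the others). Of 12 pluripotency genes, 1 rose (means of 7.19 to 7.55 in the batch 4 arrays and 7.04 to 7.28 in the others).

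The screen induced a member itself in 2 groups, Hoxc6 alone with the CD2 reporter and Hoxc6 with Pou3f1 with the CD14 reporter. Hoxc6 read 9.41 and 9.19 in the CD2 line, against 6.27 in H4, 6.81 in Hoxa5, 6.97 in Lhx3 and 7.10 in Zic1 of the same batch, batch 5, and against 6.62, 6.34, 6.66 and 7.00 in CD2 YFP. In the Pou3f1 with Hoxc6 line it read 9.84 and 10.00, against 6.33 and 6.51 in Pou3f1 and 6.38 and 6.47 in YFP of that batch, batch 6. All 4 arrays were above every array of the rest of the series, where the highest value was 8.12. Whether the cluster read RNA of the transgene, of the cells' own gene or of both cannot be told apart.

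Beside Hoxc6, the CD2 line had high Hoxb6 and Hoxb9, of the brachial and thoracic groups of the Hoxb cluster. Hoxb6 read 9.30 and 8.84 in the Hoxc6 line, against 7.64, 7.87, 7.56 and 8.04 in the other 4 arrays of batch 5 and 7.13, 7.66, 7.87 and 8.04 in YFP. Hoxb9 read 9.13 and 8.89, against 7.72, 8.00, 8.24 and 8.30 in batch 5 and 8.03, 7.94, 8.03 and 8.25 in YFP. For both genes the Hoxc6 arrays were above all 8 others. Hoxa6 read 7.94 and 8.17, against 7.56, 7.59, 7.33 and 7.70 in batch 5 and 7.52 to 7.85 in YFP, also without overlap.

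Against CD2 YFP, 3 of the 10 genes rose in the Hoxc6 line and 0 fell, where 2.35% of all genes were called, 1.2% higher. Hoxc6 was higher by 3.03 ± 0.25 (log2, SE, 8.17-fold, limma adjusted p = 3.85e-10). Hoxb6 was higher by 1.74 ± 0.36 (limma adjusted p = 0.00497) and Hoxb9 by 1.20 ± 0.23 (limma adjusted p = 0.00183). Hoxa6 was not called at 0.73 ± 0.25 (limma adjusted p = 0.119), and the other 6 lay between -0.23 (Hoxc9) and 0.35 (Hoxa7). Batch 5 held no YFP array, so this contrast passes through lines shared between batches. Without batch terms, Hoxc6 alone was called, where 2.3% of all genes were. Hoxb6 was then at 1.40 (adjusted p = 0.138) and Hoxb9 at 0.95 (adjusted p = 0.216). The Hoxb6 call was also lost without the H4 array of batch 5 (adjusted p = 0.0627).

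Within batch 5, the 2 Hoxc6 arrays against the 4 others gave calls for 0.0853% of all genes and for 1 of the 10, Hoxc6, at 2.51 ± 0.22 (limma adjusted p = 0.0107). Hoxb6 was at 1.29 ± 0.18 (limma adjusted p = 0.0836), Hoxb9 at 0.94 ± 0.18 (limma adjusted p = 0.292) and Hoxa6 at 0.51 ± 0.14 (limma adjusted p = 0.657). The differences of Hoxb6 and Hoxb9 thus kept their direction within the batch and did not pass there. The Hoxc6 call was itself lost without the Hoxa5 array of that batch (adjusted p = 0.067) or without either Hoxc6 array (adjusted p = 0.085 and 0.0929). Hoxa5, Lhx3 and Zic1 each carry a factor of their own, so the mean of these 4 arrays is not that of an uninduced line.

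In the CD14 line the genes that rose beside Hoxc6 against Pou3f1 alone were Hoxc8 and Hoxa9. Hoxc8 read 7.25 and 7.22 in Pou3f1 with Hoxc6, against 6.57 and 6.50 in Pou3f1 alone and 6.80 and 6.58 in YFP of batch 6, the arrays with Hoxc6 being the highest of the 3 groups. Hoxa9 read 6.58 and 6.47, against 6.16 and 6.03 in Pou3f1 and 6.46 and 6.42 in YFP. For Hoxa9, then, the Pou3f1 arrays stood low, and the arrays with Hoxc6 were near those of YFP.

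Against Pou3f1 alone, 3 of the 10 genes rose in Pou3f1 with Hoxc6 and 0 fell, where 8.97% of all genes were called, 4.67% higher. Hoxc6 was higher by 3.50 ± 0.19 (11.3-fold, limma adjusted p = 2.57e-16), Hoxc8 by 0.70 ± 0.15 (limma adjusted p = 0.00169) and Hoxa9 by 0.43 ± 0.11 (limma adjusted p = 0.00722). The call of Hoxa9 was lost without the second Pou3f1 array (adjusted p = 0.133), without the first array with Hoxc6 (adjusted p = 0.105) and after a further quantile normalisation (adjusted p = 0.0878). The differences of all 10 genes were positive, with a median of 0.43 against 0.07 over all genes. Against CD14 YFP, where 8.98% of genes were called, 4.8% higher, Hoxc6 (3.50 ± 0.19, limma adjusted p = 2.63e-16) and Hoxc8 (0.55 ± 0.15, limma adjusted p = 0.0136) rose and Hoxa9 was at 0.09. There the Hoxc8 call was lost without either array with Hoxc6 (adjusted p = 0.108 and 0.0802) or the second YFP array of batch 6 (adjusted p = 0.179).

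Hoxb6, which rose in the CD2 line, read 8.05 and 8.08 in Pou3f1 with Hoxc6, against 7.35 and 7.45 in Pou3f1 alone. Hoxb9, which rose there too, read 7.95 and 7.93, against 7.57 and 7.45. Both were above their Pou3f1 arrays and were not called, at 0.66 ± 0.27 (limma adjusted p = 0.119) and 0.43 ± 0.17 (limma adjusted p = 0.0988). With the CD14 arrays of batch 6 fitted alone, 23.7% of all genes and 7 of the 10 were called, Hoxb6 (limma adjusted p = 0.00141), Hoxb9, Hoxb7 and Hoxa7 being added. The difference between the Hoxc6 effects was computed after the values had been seen. It was the CD2 line against its YFP minus Pou3f1 with Hoxc6 against Pou3f1 alone. Of the 10 genes 0 were called in it, where 3.21% of all genes were. Hoxb6 was at 1.08 ± 0.45 (limma adjusted p = 0.169) and Hoxb9 at 0.77 ± 0.28 (limma adjusted p = 0.113). Without the 6 high arrays of batch 4, Hoxb6 (1.47, adjusted p = 0.0402) and Hoxc8 (-0.91, adjusted p = 0.0459) were called, where 1.89% of all genes were. The lines differ in Pou3f1 as well as in reporter and batch, which cannot be told apart.

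**Figure D3:**
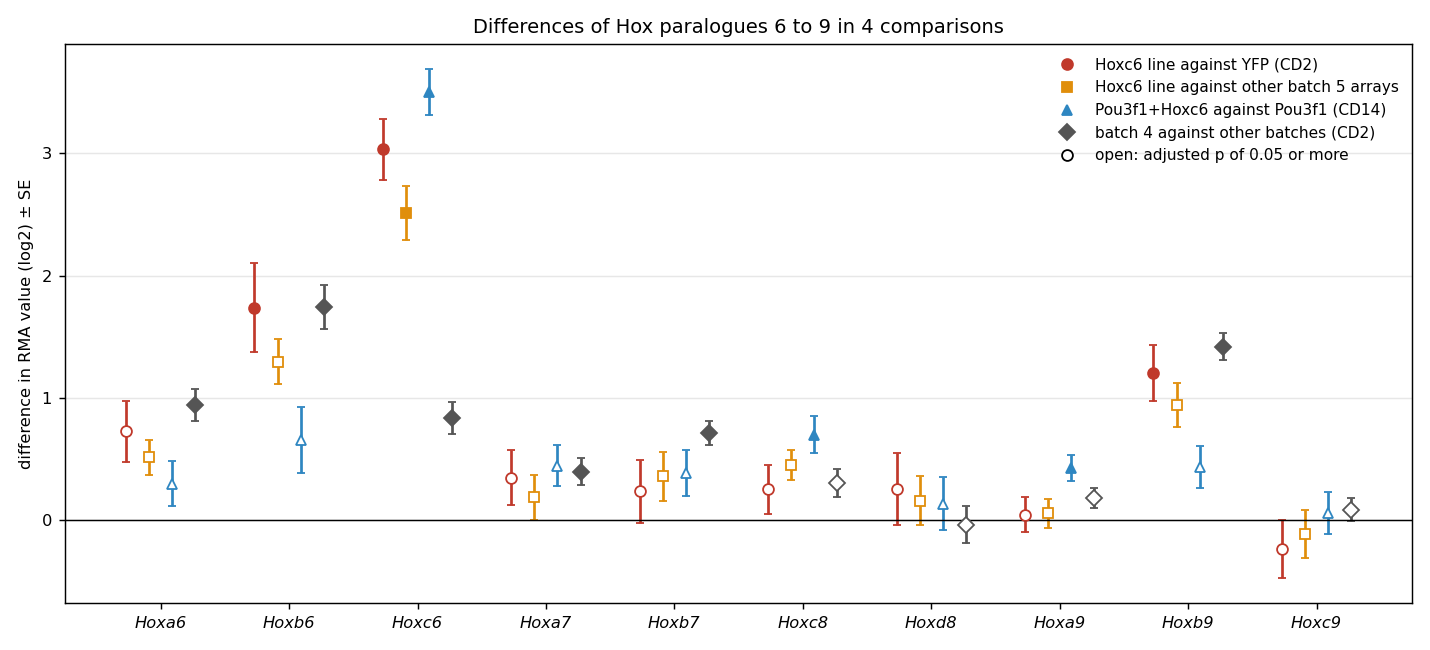
Differences in RMA value (log2, ± SE) of the 10 genes in 4 comparisons: the Hoxc6 line against YFP and against the other batch 5 arrays, Pou3f1 with Hoxc6 against Pou3f1, and batch 4 against other batches of the same lines. Hoxc6 lies between 2.51 and 3.50 in the first 3 and at 0.84 in the fourth, Hoxb6 and Hoxb9 are high in the CD2 and batch 4 comparisons, and Hoxc9 lies between -0.23 and 0.09.

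More rostral Hox genes rose in both Hoxc6 lines. In the CD2 line against YFP, 2 of 7 genes of groups 4 and 5 rose, Hoxa5 by 2.75 and Hoxc5 by 2.99, and 0 of 7 genes of groups 1 to 3 and 0 of 12 of groups 10 to 13 changed. Hoxa5 read 11.80 and 12.07 there, against 9.38, 10.59, 9.02 and 10.80 in the other arrays of batch 5. Against Pou3f1 alone, Pou3f1 with Hoxc6 had 4 of 7 genes of groups 4 and 5 higher (Hoxc5 by 3.75, Hoxc4 by 2.55, Hoxa5 by 2.25 and Hoxa4 by 0.78), with Hoxa3 higher by 0.74, Hoxd3 lower by 1.22 and Hoxd10 higher by 0.53.

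Genes known to follow Hoxc6 in limb-innervating motor neurons were among those that rose. Of 19 brachial and thoracic motor neuron genes, 3 rose in the CD2 line against YFP: Aldh1a2 by 5.17, Foxp1, a cofactor that Hox proteins need in these neurons, by 2.91, and Gfra1, a receptor subunit for the neurotrophic factor Gdnf, by 1.62. In Pou3f1 with Hoxc6 against Pou3f1, 4 rose and 2 fell, Aldh1a2 by 5.76 and Foxp1 by 0.87 among the first, and Ret, the partner of Gfra1, which fell by 0.90, among the second. Aldh1a2 read 13.25 and 13.54 in the CD2 line, against 8.31, 9.29, 7.87 and 9.39 in the other batch 5 arrays, and 12.74 and 12.62 in the CD14 line, against 7.01 and 6.85 in Pou3f1. Cyp26b1 rose in both, by 2.30 and 0.79.

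The microRNA genes of the clusters differed between the lines. Mir10a, in the Hoxb cluster, rose by 2.00 in the CD2 line against YFP, and Mir615, beside Hoxc5, rose by 1.07 in Pou3f1 with Hoxc6 against Pou3f1. In the difference between the 2 Hoxc6 effects, Mir10a was higher by 2.25 (limma adjusted p = 0.00495) in the CD2 line, and Mir615 (-0.96, limma adjusted p = 0.0363) and Mir196a-2 (-1.13, limma adjusted p = 0.0472) were lower.

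Other markers stood beside these results as follows. Of 15 neural progenitor genes, 0 were called in either Hoxc6 comparison, and their mean was 10.08 to 10.61 in the CD2 line, against 10.17 to 10.72 in the other batch 5 arrays, and 9.46 to 9.47 in Pou3f1 with Hoxc6, against 9.84 to 9.96 in Pou3f1. Of 13 motor neuron genes, Isl2 fell in both, by 1.25 in the CD2 line and by 0.97 in the CD14 line, where Isl1, Mnx1 and Prph rose by 0.54, 0.56 and 0.61. Of 12 mesoderm, endothelium and fibroblast genes, 0 were called in either.

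Over all 27 comparisons of a line with YFP of its reporter, 11 of 270 pairs of gene and line were called (4.07%), 6 higher and 5 lower, in 5 lines, against 1.99% of all pairs of gene and line over the 19938 genes. In 2 of the 11 the gene was the induced Hoxc6. The other 22 lines had 0 calls among the 10 genes. Hoxa5 was such a line: its differences from YFP ran from -0.26 to 0.64, with 0% of all genes called, Hoxa5 itself included, so the absence of calls says nothing particular about the 10. Hoxc6 itself was at 0.83 in Zic1 (limma adjusted p = 0.226) and at 0.71 in Lhx3 (limma adjusted p = 0.113), the highest values outside the Hoxc6 lines.

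**Figure D4:**
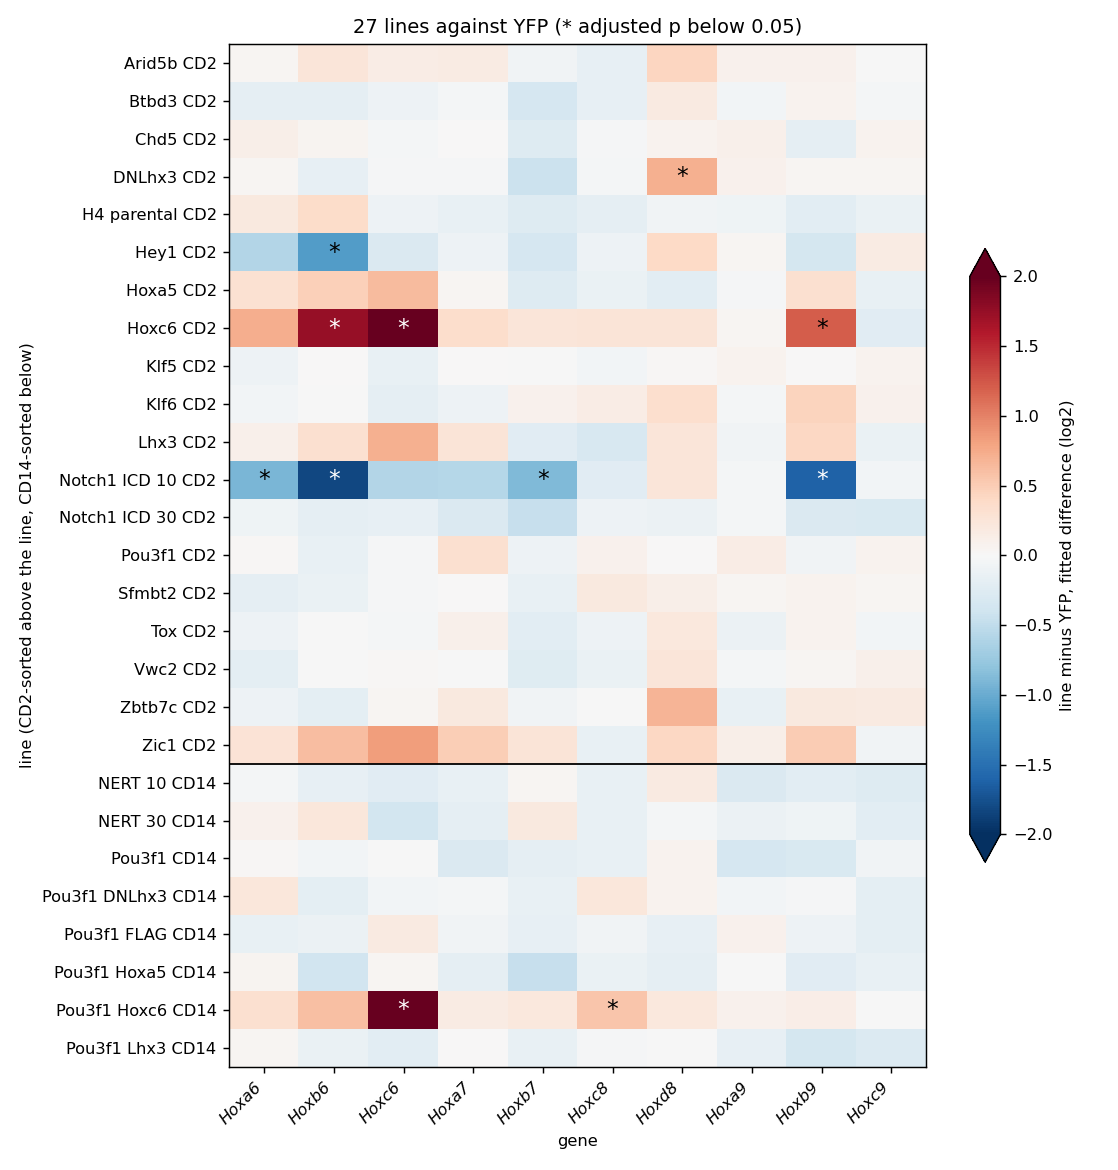
Fitted differences (log2, line minus YFP of the same reporter) of the 10 genes in 27 lines, CD2-sorted lines above the rule and CD14-sorted below, with a star where the adjusted p was below 0.05. Of 270 cells, 11 carry a star, in the Hoxc6, Pou3f1 with Hoxc6, Notch1 ICD for 10 h, Hey1 and DNLhx3 lines.

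Notch1 ICD for 10 h, the intracellular domain that switches on Notch target genes, had 4 of the 10 genes lower than YFP, where 2.96% of genes were called, 0.712% lower: Hoxb6 at -1.82 ± 0.28 (limma adjusted p = 7.34e-05), Hoxb9 at -1.61 ± 0.18 (limma adjusted p = 1.46e-07), Hoxa6 at -0.92 ± 0.19 (limma adjusted p = 0.00349) and Hoxb7 at -0.88 ± 0.20 (limma adjusted p = 0.00729). Before the batch terms, the values of 3 of the 4 lay within the range of the YFP arrays. Hoxb6 read 7.57 and 7.46 in the 2 arrays, against 7.13 to 8.04 in YFP, Hoxa6 7.60 and 7.55, against 7.52 to 7.85, and Hoxb7 8.37 and 8.20, against 8.13 to 9.02. Hoxb9, at 7.87 and 7.74, was below every YFP array (7.94 to 8.25). Both arrays lie in batch 4, whose fitted level rests on the arrays of lines shared with other batches, and these include the 6 high ones.

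Without those 6 arrays, Hoxb6 was at -0.20, Hoxb7 at -0.12, Hoxb9 at -0.91 and Hoxa6 at 0.11 in Notch1 ICD for 10 h. None of the 4 was called, where 0.772% of all genes were. Hoxd8 was called in their place, at 1.37 ± 0.28 (limma adjusted p = 0.0106), with batch 4 then tied to the rest through 1 Hey1 array in each of 2 batches. The calls of Hoxa6 and Hoxb7 were also lost without the second Notch1 ICD array (adjusted p = 0.0536 and 0.134). In Notch1 ICD for 30 h, from batch 3, 0 of the 10 were called, where 6.07% of genes were, and the 10 differences lay between -0.46 and -0.03.

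Hey1, a transcriptional repressor downstream of Notch, had Hoxb6 lower than YFP, at -1.11 ± 0.26 (limma adjusted p = 0.0444), where 0.361% of genes were called, 0.11% lower. Hoxb6 read 7.26 and 7.52 in the 2 Hey1 arrays, against 7.13 to 8.04 in YFP, so the values overlapped. The difference was -0.19 without the 6 high arrays and -0.29 without the Hey1 array of batch 4, and the call was lost on leaving out any of 35 of the 68 arrays. Without the 6 high arrays Hoxd8 was called instead, at 0.99 (limma adjusted p = 0.022), where 0.191% of all genes were called.

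DNLhx3 was the only line with a call that had no array in batches 4 to 6. Hoxd8, the one member of the Hoxd cluster, read 7.67 and 7.46 in DNLhx3, against 6.86 and 7.06 in YFP of the same batch, batch 3, and was higher by 0.72 ± 0.20 (limma adjusted p = 0.0328), where 4.09% of genes were called, 2% higher. The call was lost without either DNLhx3 array (adjusted p = 0.196 and 0.108), without the YFP array of batch 2 (adjusted p = 0.0716) and without either Klf6 array (adjusted p = 0.053 each). Hoxd8 values as high occurred elsewhere: in batch 2 it read 7.76 in Hey1 and 7.62 and 7.42 in Zbtb7c, against 6.48 in the single YFP array.

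**Figure D5:**
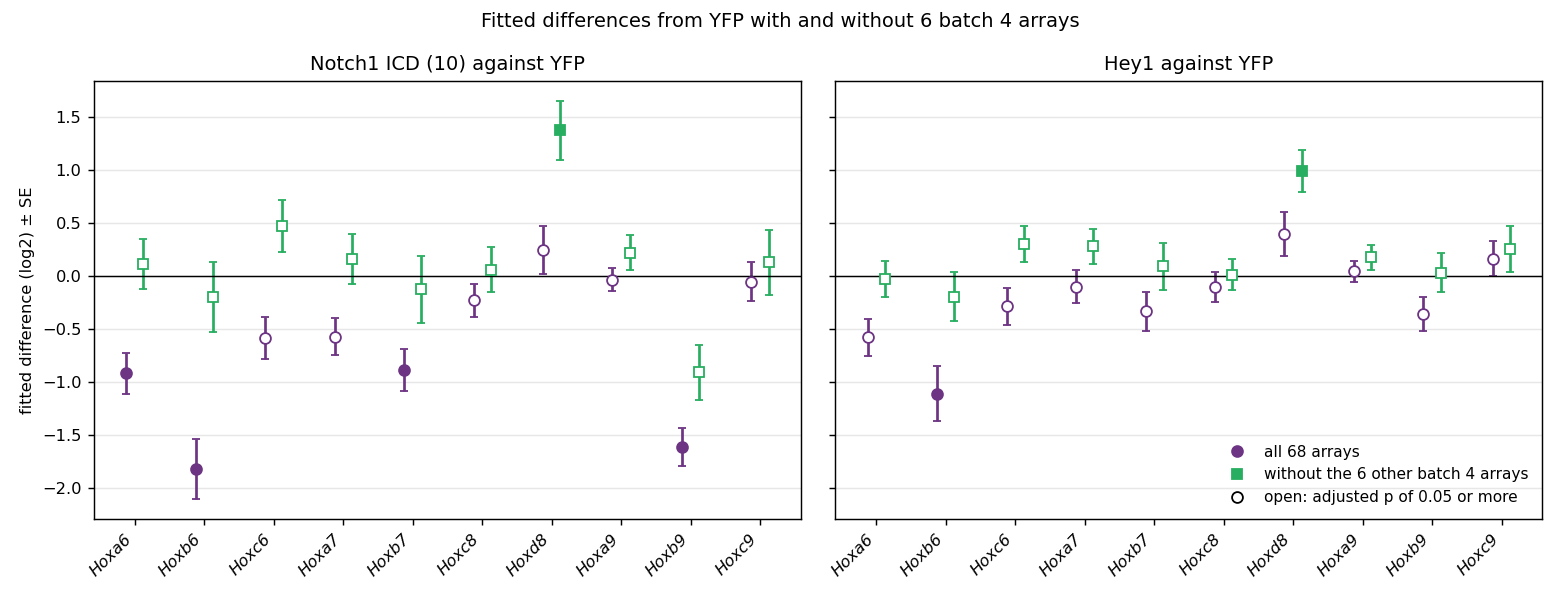
Fitted differences from YFP (log2, ± SE) of the 10 genes in Notch1 ICD for 10 h (left) and Hey1 (right), with all 68 arrays (circles) and without the 6 high batch 4 arrays (squares), filled where the adjusted p was below 0.05. Hoxb6 is at -1.82 with all arrays and at -0.20 without the 6 in Notch1 ICD for 10 h, and at -1.11 and -0.19 in Hey1, while Hoxd8 is called only without them.

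By contrast, the calls of the Hoxc6 line held without the 6 arrays, where 1.96% of all genes were called. Hoxc6 was at 2.88, Hoxb6 at 2.12 and Hoxb9 at 1.15, all 3 called.

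Hoxa5 added to Pou3f1 gave 0 calls among the 10 genes against Pou3f1 alone, where limma called 3.45% of all genes and 3362 genes had an unadjusted p below 0.05. The differences ran from -0.33 (Hoxb6) to 0.33 (Hoxa9, limma adjusted p = 0.0771). Hoxa9 read 6.40 and 6.45 in Pou3f1 with Hoxa5, against 6.16 and 6.03 in Pou3f1, and Hoxb6 7.20 and 6.95, against 7.35 and 7.45. Neither pair of groups overlapped, and with the CD14 arrays of batch 6 alone, where 13.5% of genes were called, both passed (adjusted p = 0.0317 and 0.0433). This comparison and that of Pou3f1 with Hoxc6 share their Pou3f1 arrays.

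Between the reporters, 0 of the 10 genes were called in CD14 YFP against CD2 YFP, where limma called 0% of all genes and 2035 had an unadjusted p below 0.05. Hoxa7 was at 0.81 ± 0.28 (limma adjusted p = 0.341) and Hoxc6 at 0.67 ± 0.31 (limma adjusted p = 0.478). No batch held YFP of both reporters. The effect of Pou3f1 in CD14 minus that in CD2 gave 0 calls among the 10, where 0.01% of genes were called, with Hoxa7 at -0.60 and Hoxa9 at -0.49 (limma adjusted p = 0.817 each).

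The 10 genes varied together to very different degrees. Over the 66 arrays of batches 1 to 7, Pearson's r between pairs of the 10 ran from 0.02 to 0.87 with a median of 0.48, and it was highest for Hoxa6 with Hoxb6 (0.87) and Hoxb6 with Hoxb9 (0.87). Over the 53 arrays without batch 4 and the Hoxc6 lines, the 45 values ran from -0.15 to 0.74 with a median of 0.27, led by Hoxb6 with Hoxb7 (0.74) and Hoxb7 with Hoxb9 (0.69). All arrays of a batch share its level, so these values are a description. Pairs of Hoxb genes were among the leading pairs in both sets.

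Among all other genes, the pattern of Hoxc6 over 66 arrays was most like that of Aldh1a2 (r = 0.93), Stx11 (0.87) and Cdh7 (0.86). These arrays include the lines in which Hoxc6 was induced. That of Hoxb6 was most like Cybrd1 (0.91), Hoxb5 (0.90) and Dhrs3 (0.89), a retinaldehyde reductase, and that of Hoxb9 most like Hoxb6 (0.87), Slc39a14 and Cybrd1 (0.85 each). Hoxa6 was nearest to Hoxa4 (0.88), Hoxb5 and Hoxb6 (0.87 each), and Hoxb7 to Hoxb6 (0.84), Hoxb9 (0.83) and Cybrd1 (0.80). All 3 nearest genes of Hoxa6 were Hox genes, and none of those of Hoxc6 was.

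The flatter genes had looser neighbours, with no Hox gene among them except for Hoxa7 and Hoxc8. Hoxa7 was nearest to Stac2 (0.76), Slc7a8 and Hoxb7 (0.74 each), and Hoxc8 to Hoxc6 (0.70), Bmp8b (0.69) and Adm (0.68). Hoxd8 was nearest to En2 (0.70), Ifi27 (0.69) and Gm10451 (0.65), Hoxa9 to Itgb2 (0.75), Crybb1 and Lhb (0.74 each), and Hoxc9 to Scrg1 (0.66), Vwa2 and D730005E14Rik (0.63 each). Over the 57 arrays without batch 4, the nearest gene of Hoxc6 was Aldh1a2 (0.93) and that of Hoxb6 was Cybrd1 (0.81). These arrays keep the Hoxc6 lines, which were the highest for both Hoxc6 and Aldh1a2, so the value for that pair is not a separate check. The nearest gene of Hoxa6 was Tshz3 (0.74) and that of Hoxb9 was Ppargc1b (0.78).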

How the data were processed

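Per the submitters' processing notes, the authors made the deposited log2 values with RMA through the oligo package, whose versions no source used here gives. RMA corrects background, normalises by quantiles and summarises the probes of a cluster, which compresses differences of dim genes. The table held 35556 clusters and 68 arrays. Names came from the platform annotation: 21789 clusters had 1 symbol, 1621 several and 12146 none, and clusters with several or none were left out. For 999 genes with several clusters, the one with the highest mean was kept, leaving 19938. Nothing was normalised again or filtered.

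limma 3.58.1 (R 4.3.3) was fitted on all arrays with a term per group and per batch, and p-values were adjusted by Benjamini-Hochberg over all genes. Batch 4 was compared with others in a fit of the 6 shared lines with line terms, and the Hoxc6 line with batch 5 in a fit of that batch. The fits were tested on simulated data. The number of arrays limits the precision. Same-batch replicates correlated at 0.987 to 0.999.

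All 10 genes are named, with the 3 genes most like each by Pearson's r. Of other lists, at most 4 called genes per comparison by adjusted p are named, with Hoxa5, Hoxc5, Hoxb5, Pou3f1, Aldh1a2 and Foxp1 where a result turns on them. Members and lists were chosen with earlier results of these data known. The difference between the 2 Hoxc6 effects was added after the values were seen. Alternatives are given in the closing section.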

Additional observations from a re-analysis of the deposited data

How the results depend on the processing

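Counts are of the 10 genes called, and the cause of each change was not tested except as said. Against YFP, 11 of 270 pairs were called with all arrays, and 9 to 15 with the reporters apart, a further quantile normalisation, a trended robust fit, array weights, a replicate block, or without batch 0, batch 4 or its 6 high arrays. The count was 3 without batch terms and, of fewer pairs, 5 in the batch 6 CD14 arrays, 1 in batches 1 to 3 and 1 once genes below the median brightness were left out, which removed 9 of the 10. It ran from 8 to 19 without 1 array (19 without the Hey1 array of batch 2). The share of all pairs of gene and line called was 1.99% with all arrays and was not counted under these alternatives. Pou3f1 with Hoxc6 against Pou3f1 gave 3 (8.97% of all genes called), but 7 with the reporters apart (28.2%), 8 with array weights (35.8%), 5 without batch 4 (12.5%) or its 6 arrays (12%), 7 in batch 6 alone (23.7%), 2 after the further quantile normalisation (7.99%) and 0 without dim genes (13.4%), with 2 to 5 without 1 array (5 without either Hey1 array). Pou3f1 with Hoxa5 gave 0 (3.45% of all genes called), but 1 with the reporters apart (18.4%), with array weights (21.9%), or without batch 4 (5.09%) or its 6 arrays (5.03%). It gave 2 in batch 6 alone (13.5%), and 0 to 1 without 1 array (1 without the H4 array of batch 4). Hoxc6 within batch 5 gave 1 (0.0853% of all genes called), but 2 with array weights (0.15%), 0 without dim genes (0%), 0 with the replicate block (0%, adjusted p of Hoxc6 0.0703), and 0 to 1 without 1 array. Batch 4 gave 6 (13% of all genes called), but 7 with array weights (18.6%), 1 without dim genes (24.2%) and 5 to 6 without 1 array. Without the 6 arrays that comparison rests on 1 Hey1 array in batch 4, so calls are not counted. There Hoxa6 (-0.029), Hoxa7 (-0.29) and Hoxc6 (-0.14) reversed. Hoxa6 in Notch1 ICD for 10 h also reversed without the 6 arrays (0.11). The 2 reporter comparisons gave 0 under every alternative run. Whether shared replicate numbers pair the samples was left unsettled. Of 29 pairs of groups in 1 batch, 10 had a correlation of deviations above 0.1 (range -0.172 to 0.565). With the replicate block, Hoxd8 in DNLhx3 (adjusted p = 0.0517) and Hoxb6 in Hey1 (0.0743) were also lost. A second cluster per gene was not run, since each gene had 1. Most probes here were dim, so small differences may be missed.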
